A study of Mus musculus with 2 samples.

Results

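The genes described here are the chemokines, interleukins, interferons, colony-stimulating factors and members of the tumor necrosis factor (TNF) family, together with their receptors, that the authors listed as cluster markers in a single-cell RNA sequencing (scRNA-seq) experiment on mouse liver. They were taken by their symbols, which begin with Ccl, Ccr, Cxcl, Cxcr, Xcl, Xcr, Cx3c or Il and a digit, with Csf and a digit, or with Tnf or Ifn. The rule found 40 of the 2788 genes listed in 2 marker tables. All 40 were among the 1755 genes of the table of all cells, which has 12 clusters, and 5 were also among the 1609 genes of a table of hepatocytes alone, which has 5 clusters. By role, 27 were receptors and 10 were ligands. The antagonist Il18bp and the TNF-induced genes Tnfaip2 and Tnfaip8, which are neither ligands nor receptors and were taken only by their prefix, made up the rest.

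The cells were primary hepatocytes from wild type BALB/c mice that had received either PBS or recombinant IL-33 (rIL-33) by intraperitoneal injection each day for 5 days, at 0.5 µg of rIL-33 a day. The livers were dissociated by a two-step digestion, and the cells were captured in droplets. Each condition had 1 library, and both libraries were pooled in both tables, so PBS and rIL-33 could not be compared and no test of any difference was possible. Per the methods, the mice for hepatocyte isolation were 8 to 10 weeks old, and those sequenced had been fasted. The number of mice that went into each library is not given in the sources used here. For each gene and cluster, the tables give 2 shares: the percentage of the cluster's cells whose value exceeded 0, and the same percentage for all cells outside the cluster. A gene stands in a table only where it was tested and passed the authors' limits for a cluster marker, so a gene that is not listed may still be expressed. The files hold no counts, so the depth per cell is unknown and the shares carry no counting interval.

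Cytokines are secreted or membrane-bound proteins by which immune and tissue cells signal to each other. Chemokines bind G protein-coupled receptors and direct the migration of leukocytes. Most interleukins bind receptors of several chains, in which a chain specific to the ligand pairs with a shared signaling chain. In the liver, Kupffer cells (the resident macrophages) are a major source of cytokines, and hepatocytes respond to IL-6 and IL-1 by producing acute-phase proteins.

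The cluster names are those of the authors and were checked against marker genes. All 7 Kupffer cell markers and all 5 T cell markers were listed for their own cluster. So were 5 of 7 for hepatocytes as a whole, 4 of 5 for neutrophils, 4 of 5 for B cells and 5 of 6 for the cluster named hepatic stellate cell (HSC)/fibroblast. Hepatocyte markers were listed for Hepatocyte4, Hepatocyte5 and, with Apoa1 alone (100%, 96.8% outside), Hepatocyte1, but not for Hepatocyte2 or Hepatocyte3. Alb (100% inside and outside), Lcn2 in neutrophils (96.2%, 83.4% outside) and Igkc in B cells (80.6%, 68.1% outside) had close shares. The other listed markers of neutrophils and B cells had wider margins. Only 2 of 7 were listed for endothelial cells (Clec4g and Kdr) and 2 of 7 for red blood cells (Alas2 and Car2). The HSC/fibroblast cluster also had endothelial markers, with Eng above 0 in 100% and Cdh5 and Stab2 in 73.7% of its cells, and the fibroblast gene Dcn was above 0 in 48.1% of the endothelial cluster. Markers of another type were also listed for neutrophils (the T cell gene Cd3d, 43.0% with 13.1% outside), for Kupffer cells (the endothelial genes Pecam1, 30.1% with 5.0% outside, and Cdh5, 26.5% with 4.7% outside), for T cells (Pecam1, 35.8% with 5.3% outside) and for Hepatocyte5 (the neutrophil gene Lcn2, 100% with 83.5% outside). The cluster names are therefore used below as labels, and the part of other cells in the values of a cluster was not tested. From the balance of the shares, the 5 hepatocyte clusters were computed to hold 90.0% of all cells. Kupffer cells held 2.67%, B cells 2.18%, neutrophils 2.09%, T cells 1.32%, the endothelial cluster 1.0%, red blood cells 0.709% and the HSC/fibroblast cluster 0.173%. All shares given for the HSC/fibroblast cluster therefore rest on very few cells.

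Among the clusters, T cells had the most listed cytokine and receptor genes, with 19 of the 40 (47.5%), and Kupffer cells had 18 (45.0%). Of all 1755 genes in the table, 34.1% were listed for T cells and 28.4% for Kupffer cells. Neutrophils had 9 of the 40 (22.5%, against 12.9% of all genes). In these 3 clusters the share of the 40 exceeded that of all genes. B cells had 6 (15.0%, against 29.1%) and the HSC/fibroblast cluster 4 (10.0%, against 30.5%). The endothelial cluster had 1 (2.5%, against 5.58%) and red blood cells had 1 (2.5%, against 18.2%). Among hepatocytes, Hepatocyte4 had 5 (12.5%, against 25.2%) and Hepatocyte5 had 3 (7.5%, against 24.7%), whereas Hepatocyte1, Hepatocyte2 and Hepatocyte3 had 0, and few genes of any kind were listed for them (1.77%, 0.57% and 2.11%). The 40 genes were all listed somewhere, so these shares compare clusters and do not test the genes as a set.

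**Figure D1:**
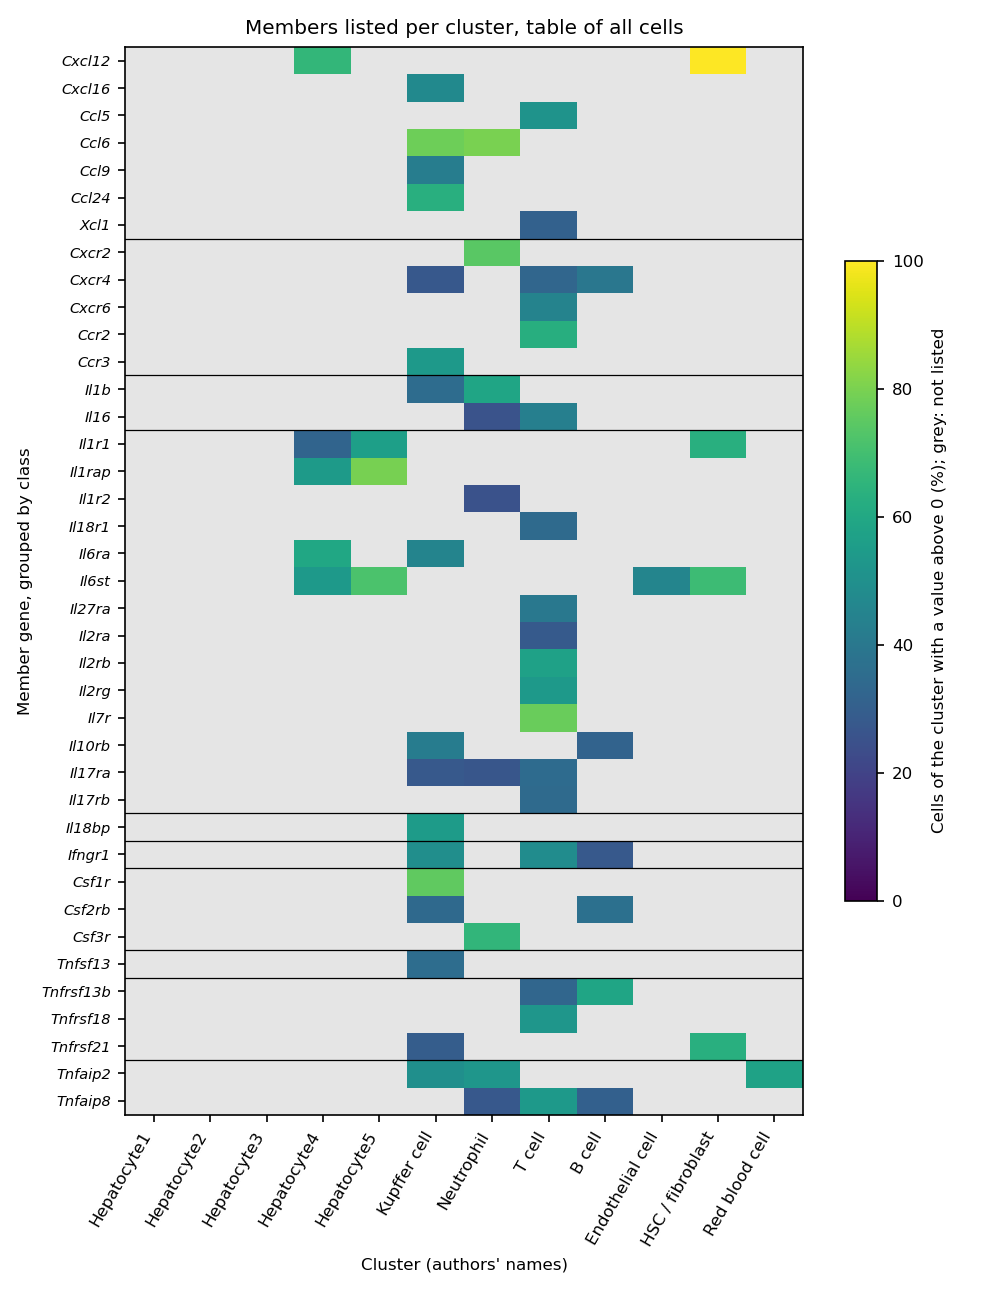
Each cell of the heat map gives the percentage of cells with a value above 0 for 1 gene (vertical axis, grouped by class with black lines) in 1 cluster (horizontal axis), from the table of all cells. Grey marks a gene that was not listed for that cluster, and a gene not reported here is left out. Of the 24 interleukin receptor entries 8 stand in the T cell column, of the 9 chemokine ligand entries 4 stand in the Kupffer cell column, and the first 3 hepatocyte columns are grey throughout.

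The 40 genes gave 66 entries of a gene for a cluster, and in all 66 the share was higher in the cluster than outside it. Among all 3742 entries of the table, 229 had the lower share in the cluster. In both tables every entry had a log2 fold change of at least 0.25, so a lower share was not a lower average value. Most of the genes had narrow listings: 22 were listed for 1 cluster, 11 for 2, 6 for 3 and only Il6st for 4. In 35 of the 40, every listed cluster was a non-hepatocyte one. Il1rap was listed for hepatocyte clusters alone, and Cxcl12, Il1r1, Il6ra and Il6st for hepatocyte and other clusters. Being listed for 1 cluster did not mean that other cells lacked values. Of the 58 entries for non-hepatocyte clusters, the share outside was under 5% in 16 and at least 20% in another 16. In only 7 of the 58 did the cluster itself hold over 50% of all cells with a value above 0, and 5 of these 7 were T cell entries.

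The cytokine genes of hepatocytes were examined first, since the preparation was made for hepatocytes. In the hepatocyte table, Cxcl12, Il1r1, Il1rap, Il6ra and Il6st were listed for Hepatocyte4 and again for Hepatocyte5, that is, 5 of 5 for each cluster, where 54.7% and 54.3% of all genes in the table were listed. None was listed for Hepatocyte1, Hepatocyte2 or Hepatocyte3 (10.6%, 3.48% and 7.64% of all genes). Hepatocyte4 and Hepatocyte5 held 18.1% and 1.47% of the hepatocytes. Together they contained 71.1% of the hepatocytes with a value above 0 for Il6st, 69.6% for Il6ra, 68.5% for Il1r1, 64.5% for Il1rap and 59.6% for Cxcl12. The genes were in this table because they were listed for these clusters, so high values here follow in part from the listing.

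Il1rap encodes the accessory chain shared by the receptors for IL-1 and IL-33. It was above 0 in 50.2% of Hepatocyte4 and 78.8% of Hepatocyte5, against 7.03% in the other 3 hepatocyte clusters combined, a value computed from the deposited shares. The share was thus 7.14 times as high in Hepatocyte4 and 11.2 times as high in Hepatocyte5 as in those cells. Il1r1, the ligand-binding chain of the IL-1 receptor, was above 0 in 29.9% of Hepatocyte4, 52.3% of Hepatocyte5 and 3.54% of the other hepatocytes. Both IL-1 receptor chains therefore had the order Hepatocyte5, Hepatocyte4, other hepatocytes. This order is not particular to cytokine genes. Of all genes listed, 878 of 880 for Hepatocyte4 and 873 of 874 for Hepatocyte5 had the higher share inside the cluster. The median margin over all listed genes was also wider for Hepatocyte5 (42.95 points) than for Hepatocyte4 (33.1 points).

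The chains of the IL-6 receptor followed the same order. Il6st encodes gp130, the signal-transducing chain shared by IL-6, IL-27 and related cytokines, and was above 0 in 57.0% of Hepatocyte5, 28.7% of Hepatocyte4 and 3.06% of the other hepatocytes. For Hepatocyte5 this was 18.6 times the share in the other hepatocytes, the highest ratio of the 5 genes. Il6ra, the IL-6-binding chain, was above 0 in 47.7% of Hepatocyte5, 33.4% of Hepatocyte4 and 3.66% of the other hepatocytes. The ratios to the other hepatocytes have a limit. Hepatocyte1 held 55.6% of the hepatocytes, and only 8 of the 170 genes listed for it had the higher share inside it. The median difference of those 170 genes was -22.85 points. The same ratios were not computed for other genes, and the part of generally low shares in Hepatocyte1 was not tested.

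Cxcl12, the chemokine that binds Cxcr4 and retains hematopoietic cells in tissue, was the only ligand in the hepatocyte table. It was above 0 in 53.6% of Hepatocyte5, 45.9% of Hepatocyte4 and 7.67% of the other hepatocytes. Its difference between Hepatocyte5 and Hepatocyte4, 7.7 percentage points, was the lowest of the 5, and those of Il1rap (28.6 points) and Il6st (28.3 points) were the highest. None of these differences can be set against a spread between mice. Across all hepatocytes, the shares were 15.9% for Il1rap, 15.3% for Cxcl12, 9.70% for Il6ra, 9.04% for Il1r1 and 8.50% for Il6st.

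**Figure D2:**
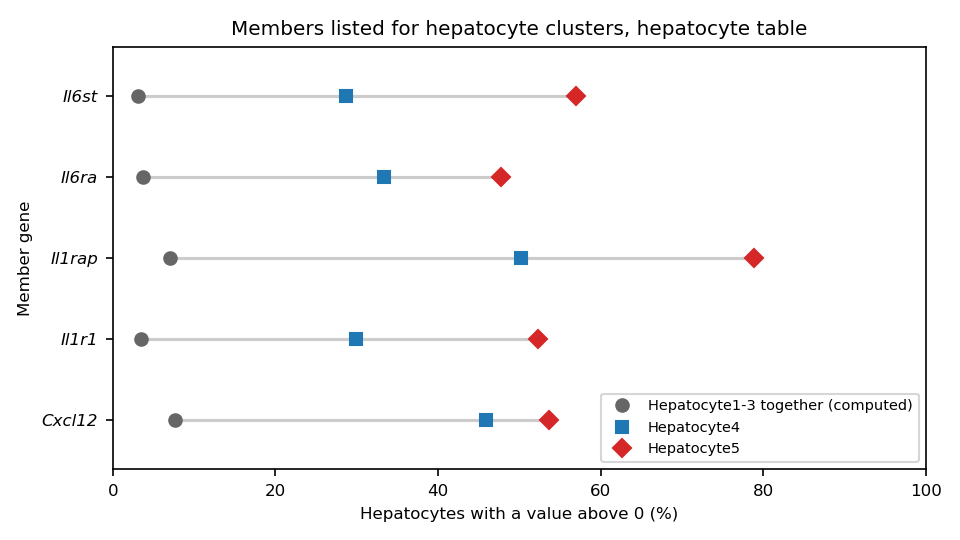
Percentage of hepatocytes with a value above 0 (horizontal axis) for the 5 genes (vertical axis) in Hepatocyte4 (squares), Hepatocyte5 (diamonds) and the other 3 hepatocyte clusters together (circles, computed), from the hepatocyte table. In each gene the circle lies under 8% and the diamond lies to the right of the square.

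These 5 genes did not lead the lists of their clusters. Ranked by the difference in share, Il1rap was 230th, Cxcl12 335th, Il6ra 547th, Il1r1 657th and Il6st 686th of the 880 genes listed for Hepatocyte4. For Hepatocyte5, Il1rap was 122nd and the others lay between 333 and 524 of 874. The median difference of the 5 genes was 28.9 points in Hepatocyte4 and 43.9 points in Hepatocyte5, beside 33.1 and 42.95 points over all genes listed for those clusters. The 5 genes were thus close to the typical listed gene. Many long transcripts were listed for the same clusters. The median length of the longest annotated transcript was 3431 nt for genes listed for Hepatocyte4 and 3618 nt for Hepatocyte5, but 918 nt for Hepatocyte1, 1240 nt for Hepatocyte2 and 1364 nt for Hepatocyte3. The 5 genes had longest transcripts of 4520 to 8678 nt with a median of 5819 nt, and the part of transcript length in their listing was not tested.

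In the mouse genome (GRCm38), Cxcl12 lies on the plus strand of chromosome 6 (117168535 to 117181367, 4 exons) and Il1rap on the plus strand of chromosome 16 (26581704 to 26730117, 11 exons). Il6st lies on the plus strand of chromosome 13 (112464070 to 112510086, 17 exons), Il1r1 on the plus strand of chromosome 1 (40225080 to 40317257, 11 exons) and Il6ra on the minus strand of chromosome 3 (89864059 to 89913196, 10 exons). The promoters of Cxcl12, Il1rap and Il6st are printed because they belong to the only ligand in the hepatocyte table, the gene with the highest share in both clusters, and the gene listed for the most clusters, and because the 5 genes were listed together. Each is the 250 bases before the annotated RefSeq start (GRCm38.p6, plus strand), written 5′ to 3′, at chr6:117168285-117168534, chr16:26581455-26581704 and chr13:112463820-112464069. Capitals mark GC boxes (GGGCGG) and CCAAT boxes (CCAAT) found on either strand.
Cxcl12: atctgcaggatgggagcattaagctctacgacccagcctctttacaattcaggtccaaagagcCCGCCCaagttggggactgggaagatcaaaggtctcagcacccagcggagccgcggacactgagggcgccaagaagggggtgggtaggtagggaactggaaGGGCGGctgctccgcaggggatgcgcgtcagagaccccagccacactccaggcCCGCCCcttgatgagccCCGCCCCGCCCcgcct
Il1rap: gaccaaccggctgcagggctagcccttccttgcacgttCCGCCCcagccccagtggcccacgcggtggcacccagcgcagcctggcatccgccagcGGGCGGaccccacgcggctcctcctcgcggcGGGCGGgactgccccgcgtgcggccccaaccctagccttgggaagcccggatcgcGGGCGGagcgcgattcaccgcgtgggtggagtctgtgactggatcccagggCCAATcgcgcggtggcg
Il6st: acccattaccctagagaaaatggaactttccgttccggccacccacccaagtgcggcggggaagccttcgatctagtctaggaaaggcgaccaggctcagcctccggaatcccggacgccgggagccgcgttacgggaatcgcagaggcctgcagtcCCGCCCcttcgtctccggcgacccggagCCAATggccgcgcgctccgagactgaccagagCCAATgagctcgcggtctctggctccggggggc

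All 3 windows were rich in G and C, at 64.4% for Cxcl12, 74.4% for Il1rap and 66.0% for Il6st, beside a median of 52.4% over 32851 mouse promoter windows of the same length. CpG dinucleotides numbered 14, 30 and 26, beside a median of 6. GC boxes numbered 5 in Cxcl12, the last 2 overlapping, 4 in Il1rap and 1 in Il6st. Over the 6 windows annotated for the 5 genes (Il1r1 has a pair of starts), 4 held a GC box and 3 a CCAAT box, beside 32.7% and 33.8% of all windows. The motif TTCNNNGAA, which STAT factors downstream of gp130 bind, was in 0 of the 6 windows and in 7.02% of all windows. These matches describe the letters of the windows only.

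The same genes had other shares in the table of all cells. Il6ra was above 0 in 59.5% of Hepatocyte4 in that table and in 33.4% in the hepatocyte table, a difference of 26.1 points for the same gene and cluster. The difference was 25.3 points for Il6st and 20.5 points for Cxcl12 in Hepatocyte4, and 14.5 points for Il6st in Hepatocyte5. For Il1rap it was 4.2 points in Hepatocyte4 and 0.7 points in Hepatocyte5, and for Il1r1 it was 2.2 and 4 points. The table of all cells had the higher value in all 8. Of the 825 entries that the tables have in common, 704 were higher in the table of all cells, 104 were equal and 17 were lower, with a median difference of 10.5 points.

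The tables also could not hold the same values in all cells. If the hepatocyte table is taken for the hepatocytes, and every other cell is given a value above 0, Il6ra could be above 0 in at most 18.8% of all cells, whereas the table of all cells amounts to 40.2%. For Il6st these shares were 17.7% and 36.1%, for Cxcl12 23.8% and 31.6%, for Il1rap 24.3% and 29.8%, and for Il1r1 18.2% and 22.3%. For these 5 genes, the tables therefore cannot both count the same values above 0, and which of them counts plain detections of a transcript was not tested. For the table of all cells, shares are given below as deposited, and a share outside a cluster is not read as expression in other cells. Where a cluster is said to hold a part of all positive cells, positive means a value above 0. That part is computed from the shares inside and outside the cluster and has the same limit.

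**Figure D3:**
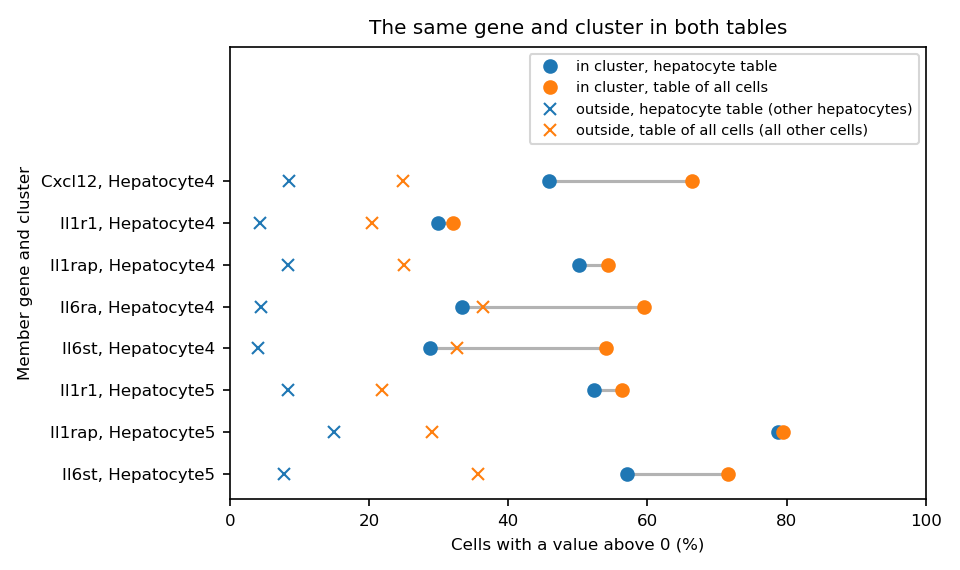
Percentage of cells with a value above 0 (horizontal axis) for the 8 gene and cluster pairs (vertical axis) found in both tables. Filled circles give the share in the cluster and crosses the share outside it, in blue for the hepatocyte table and orange for the table of all cells, and every orange symbol lies to the right of its blue counterpart.

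Chemokine ligands numbered 7, and 4 of them were listed for Kupffer cells. Ccl6, a CC chemokine of rodents, was above 0 in 77.8% of Kupffer cells and 30.9% of other cells, and in 79.7% of neutrophils and 31.2% of other cells. Ccl24 (eotaxin-2), which attracts eosinophils, was above 0 in 63.2% of Kupffer cells and 11.6% of other cells. Kupffer cells held 13.0% of all cells with a Ccl24 value above 0 but 2.67% of all cells. Cxcl16, a membrane-bound chemokine that binds Cxcr6, was above 0 in 47.4% of Kupffer cells and 17.7% of other cells. Ccl9 was above 0 in 42.4% and 32.1%, the narrowest margin among the chemokine ligands.

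The other chemokine ligands were listed for T cells, Hepatocyte4 or the HSC/fibroblast cluster. Xcl1 (lymphotactin), a chemokine of activated T cells and natural killer cells, was above 0 in 31.1% of T cells and in 0% of other cells after rounding. With the rounding taken at its limits, T cells held at least 89.2% of the Xcl1-positive cells. Ccl5, made by activated T cells, was above 0 in 51.4% of T cells and in 19.7% of other cells. T cells held 3.36% of the cells with a Ccl5 value above 0. Cxcl12 was above 0 in 100% of the HSC/fibroblast cluster, the highest share of any of the 40 genes, with 31.5% outside it. That cluster held only 0.173% of all cells, so its 100% rests on very few cells. In Hepatocyte4, Cxcl12 was above 0 in 66.4%, with 24.9% outside.

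Chemokine receptors numbered 6, and their shares outside the cluster ranged from 0.1% to 11.6%, lower than those of most chemokine ligands. Cxcr2, through which neutrophils respond to Cxcl1 and Cxcl2, was above 0 in 74.3% of neutrophils and 1.3% of other cells. It ranked 6th of the 226 genes listed for neutrophils by the difference in share, and neutrophils held 55.0% of the Cxcr2-positive cells. Ccr2, the receptor for Ccl2 that is best known on inflammatory monocytes, was above 0 in 62.8% of T cells and 0.9% of other cells and was not listed for Kupffer cells. Cxcr6, which marks tissue-resident lymphocytes of the liver, was above 0 in 44.6% of T cells and 0.1% of other cells, and T cells held 85.6% of its positive cells. In the order of the share of positive cells held by the cluster, Xcl1 and Cxcr6 in T cells were the first of the 40 genes.

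Ccr3, the eotaxin receptor best known on eosinophils, was above 0 in 53.6% of Kupffer cells and 3.6% of other cells, and Kupffer cells held 29.0% of its positive cells. Cxcr4, the receptor for Cxcl12, was listed for B cells (39.7%), T cells (33.1%) and Kupffer cells (27.5%), with 11.3% to 11.6% outside. It was not listed for any hepatocyte cluster or for the HSC/fibroblast cluster, where its ligand was.

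Interleukin ligands numbered only 2. Il1b, the proinflammatory cytokine of myeloid cells, was above 0 in 58.6% of neutrophils and 35.4% of Kupffer cells, with 9.0% and 9.4% outside them. Neutrophils held 12.2% and Kupffer cells 9.37% of the Il1b-positive cells. Il16, a chemoattractant for CD4+ cells, was above 0 in 43.2% of T cells and 25.7% of neutrophils, with 4.9% and 5.0% outside. The soluble antagonist Il18bp, which binds and neutralizes IL-18, was above 0 in 55.0% of Kupffer cells and 18.0% of other cells.

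The interleukin receptors were the largest class, with 14 genes, and 8 of them were listed for T cells. Il7r, the IL-7 receptor chain required for the survival of T cells and innate lymphoid cells, was above 0 in 77.0% of T cells and 0.4% of other cells. It ranked 4th of the 598 genes listed for T cells, and T cells held 72.0% of the Il7r-positive cells. Il2rb, the chain shared by the receptors for IL-2 and IL-15, was above 0 in 57.4% of T cells and 0.6% of other cells. Il2rg, the common gamma chain, was above 0 in 54.1% and 4.0%. Il2ra, the high-affinity chain of the IL-2 receptor found on regulatory and activated T cells, was above 0 in 28.4% and 2.2%. All 3 chains of the IL-2 receptor were thus listed for T cells and for no other cluster.

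Il27ra, the receptor for IL-27, was above 0 in 39.9% of T cells and 0.6% of other cells. Il18r1, the IL-18-binding chain, was above 0 in 34.5% of T cells and 1.0% of other cells. Il17rb, a chain of the receptor for IL-25, was above 0 in 34.5% of T cells as well, but in 18.5% of other cells. The equal shares in T cells thus went with unequal shares elsewhere.

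The interleukin receptors of myeloid cells were fewer. Il1r2, the decoy receptor for IL-1, was above 0 in 25.3% of neutrophils and 1.4% of other cells, and neutrophils held 27.8% of the Il1r2-positive cells. Il17ra, the receptor chain for IL-17A, was listed for T cells (35.1%), Kupffer cells (28.1%) and neutrophils (26.6%), with 12.9% to 13.0% outside. Il10rb, a chain shared by the receptors for IL-10 and IL-22, was above 0 in 42.1% of Kupffer cells and 32.0% of B cells, with 20.5% and 20.8% outside. Il6ra was above 0 in 45.0% of Kupffer cells and 40.0% of other cells, a margin of 5 points.

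Il6st and Il1r1, listed for hepatocytes, were also listed for the HSC/fibroblast cluster. Il6st was above 0 in 68.4% of the HSC/fibroblast cluster and in 45.4% of the endothelial cluster, with 36.0% outside each, and was the only one of the 40 genes listed for the endothelial cluster. Il1r1 was above 0 in 63.2% of the HSC/fibroblast cluster and in 22.2% of other cells. In the table of all cells the shares in Hepatocyte5 were 71.5% for Il6st and 56.3% for Il1r1, with 35.6% and 21.8% outside.

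**Figure D4:**
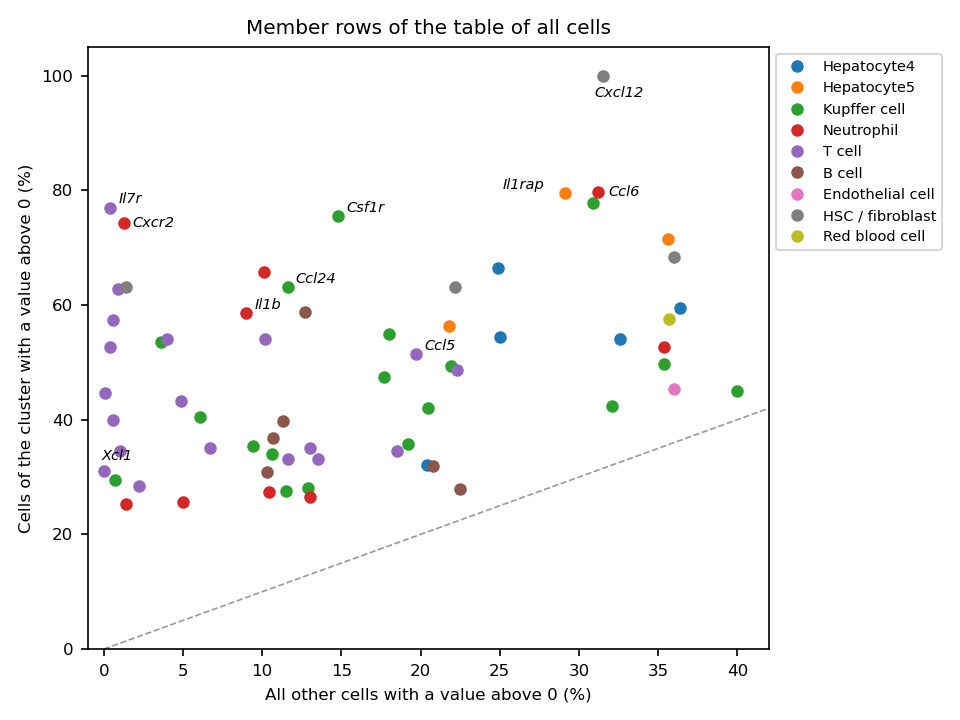
Each point is 1 of the 66 entries of the 40 genes in the table of all cells, with the percentage of cells of the cluster with a value above 0 (vertical axis) against that of all other cells (horizontal axis), colored by cluster. The dashed line marks equal shares, and all points lie above it. Many T cell entries lie at the left edge, where few other cells had a value above 0, and the rest reach up to 22.3% outside (Ifngr1).

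Among receptors for colony-stimulating factors, Csf1r, which maintains macrophages, was above 0 in 75.5% of Kupffer cells and 14.8% of other cells and ranked 14th of the 499 genes listed for Kupffer cells. Csf3r, the receptor for granulocyte colony-stimulating factor, was above 0 in 65.8% of neutrophils and 10.1% of other cells. Csf2rb, the chain shared by the receptors for GM-CSF, IL-3 and IL-5, was above 0 in 36.8% of B cells and 34.1% of Kupffer cells, with 10.7% and 10.6% outside. Csf1r and Csf3r were thus each listed for a single cluster, and Csf2rb for a pair. Ifngr1, the ligand-binding chain of the interferon-gamma receptor and the only interferon gene, was listed for Kupffer cells (49.3%), T cells (48.6%) and B cells (27.9%), with 21.9% to 22.5% outside.

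In the TNF family, Tnfrsf13b (TACI), a receptor on B cells, was above 0 in 58.7% of B cells and 12.7% of other cells. Its difference of 46.0 points was the highest of the 6 genes listed for B cells. It was also above 0 in 33.1% of T cells, with 13.5% outside. Tnfsf13 (APRIL), a ligand of TACI and the only ligand of the family listed, was above 0 in 35.8% of Kupffer cells and 19.2% of other cells. Tnfrsf18 (GITR), found on regulatory and activated T cells, was above 0 in 52.7% of T cells and 0.4% of other cells. Tnfrsf21 (death receptor 6) was above 0 in 63.2% of the HSC/fibroblast cluster and 1.4% of other cells, and in 29.5% of Kupffer cells and 0.7% of other cells. Kupffer cells held 53.7% of the Tnfrsf21-positive cells.

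The 2 genes taken only by their prefix were broadly listed. Tnfaip2 was above 0 in 57.5% of red blood cells, 52.7% of neutrophils and 49.7% of Kupffer cells, with 35.4% to 35.7% outside, and was the only one of the 40 genes listed for red blood cells. Tnfaip8 was above 0 in 54.1% of T cells, 30.8% of B cells and 27.4% of neutrophils, with 10.2% to 10.4% outside.

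The margin between a cluster and all other cells was compared with that of all genes listed for it. The median margin of the 19 genes of T cells was 33.5 points, beside 26.2 points over all genes listed for T cells, and that of the 18 genes of Kupffer cells was 26.7 points beside 22.0 points. The medians were 23.9 and 24.1 points in neutrophils, 23.3 and 22.3 points in B cells, and 51.4 and 51.8 points in the HSC/fibroblast cluster. In Hepatocyte4 and Hepatocyte5 of the table of all cells they were 23.1 and 35.9 points, beside 33.8 and 44.6 points. The endothelial and red blood cell clusters had 1 gene each, at 9.4 and 21.8 points beside 8.5 and 33.65 points. The genes' median thus exceeded that of all listed genes by the most in T cells and differed from it by at most 1 point in neutrophils, B cells and the HSC/fibroblast cluster. It lay below it in both hepatocyte clusters of this table, but in the hepatocyte table the Hepatocyte5 median was 43.9 points beside 42.95 points.

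Ligands and receptors were then set against each other in 31 groups of known partners. Both sides were listed in 6 groups, the receptor side alone in 17, the ligand side alone in 2 and neither in 6. In several of the 6, a ligand and a receptor were listed for the same cluster, among them Ccl24 (63.2%) and its receptor Ccr3 (53.6%) in Kupffer cells, and Il1b and its decoy receptor Il1r2 in neutrophils. Cxcl16 of Kupffer cells (47.4%) stood opposite Cxcr6 of T cells (44.6%), and Tnfsf13 of Kupffer cells stood opposite Tnfrsf13b of B cells and T cells. Cxcl12 of Hepatocyte4, Hepatocyte5 and the HSC/fibroblast cluster stood opposite Cxcr4 of B cells, T cells and Kupffer cells. Ccl5 of T cells stood opposite Ccr3 of Kupffer cells. Il1b of neutrophils and Kupffer cells stood opposite Il1r1 of hepatocytes and the HSC/fibroblast cluster and Il1rap of hepatocytes. A listing on both sides shows neither binding nor signaling.

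In the 17 groups with the receptor alone were IL-6 (Il6ra and Il6st), IL-7, IL-2 and IL-15, IL-17A, IL-27, interferon gamma and the 3 groups of colony-stimulating factors. The ligand-only groups were Ccl6 and Ccl9, whose receptor Ccr1 was not listed, and Xcl1, whose receptor Xcr1 was not listed. Of the partners of the injected cytokine, Il1rap was listed for hepatocytes, whereas Il1rl1, which binds IL-33, and Il33 itself were not listed for any cluster. Neither Il13, Il4 nor their receptor chains Il4ra, Il13ra1 and Il13ra2 were listed. Whether such a gene was below the limits, equal between clusters or not among the genes tested was not tested.

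Genes that act downstream of these receptors were followed with lists of related genes. The p-value adjustment covered 2000 genes in the table of all cells and 12477 in the hepatocyte table. A gene of these lists may thus be unlisted because it was not among those tested. Of 18 genes of JAK-STAT signaling and its inhibitors, 6 were listed in the table of all cells, in 12 entries. The share in the cluster was higher in 7 entries and lower in 5, which still had a positive log2 fold change. In T cells, Stat4, which transmits IL-12 signals, was above 0 in 39.2% with 0% outside, and Socs1, an inhibitor of cytokine signaling, in 33.1% with 0.4% outside. Among hepatocytes, 2 of the 18 were listed, both for Hepatocyte4. These were Stat3, which transmits gp130 signals (46.2%, with 9.3% outside), and Jak1, a kinase bound to gp130 (28.6%, with 6.0% outside).

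Of 18 genes of IL-1, TNF and NF-kB signaling, Nfkb1 and Rel were listed in the table of all cells and 0 in the hepatocyte table. Nfkb1 was above 0 in 52.0% of T cells, 38.1% of Kupffer cells and 33.2% of B cells, but in only 8.0% of neutrophils, with 25.8% to 26.5% outside. Rel was above 0 in 33.8% of T cells and 25.8% of Kupffer cells, with 16.2% and 16.1% outside. Neutrophils thus had Il1b listed with a high share and Nfkb1 with a low one. As a listed entry, Nfkb1 in neutrophils still had a positive log2 fold change, so the low share is not a low average value.

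Cytokine genes whose symbols fall outside the rule were counted from a list of 30, of which 6 were listed in the table of all cells, in 13 entries, and all 13 had the higher share in the cluster. Lifr, which pairs with gp130, was listed for the same hepatocyte clusters as Il6st. In the hepatocyte table it was above 0 in 60.9% of Hepatocyte5 and 27.4% of Hepatocyte4, with 8.9% and 5.7% outside. Ltb, a membrane-bound ligand of the TNF family, was above 0 in 85.8% of T cells and 64.1% of neutrophils, with 8.1% and 7.9% outside. Cd74, a receptor for Mif and the invariant chain of MHC class II, was above 0 in 89.9% of B cells and 66.9% of Kupffer cells, with 28.2% and 28.5% outside. In the hepatocyte table, Mif was listed for clusters for which none of the 5 genes above was. It was above 0 in 25.7% of Hepatocyte1 with 55.2% outside it, and in 40.7% of Hepatocyte3 with 38.6% outside it. The Hepatocyte1 entry of Mif had the lower share in the cluster but a positive log2 fold change.

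Several of the 40 genes are neighbors in the genome, and their listings were compared. On chromosome 9, Ccr3 lies between Cxcr6 and Ccr2, with gaps of 210.2 and 70.3 kb. Ccr3 was listed for Kupffer cells, whereas Cxcr6 and Ccr2 were both listed for T cells. On chromosome 1, Il1r2, Il1r1 and Il18r1 follow each other with gaps of 99.8 and 148.3 kb. Il1r2 was listed for neutrophils, Il1r1 for hepatocytes and the HSC/fibroblast cluster, and Il18r1 for T cells. On chromosome 11, Ccl9 and Ccl6 lie 9.245 kb apart and were both listed for Kupffer cells, whereas Ccl5, 42.4 kb from Ccl9, was listed for T cells. The genes on chromosome 1 thus had different clusters, whereas on chromosomes 9 and 11 some of the genes shared a cluster.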

How the data were processed

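Primary hepatocytes of wild type BALB/c mice given PBS or rIL-33 were sequenced with 1 library per condition, assigned from the sample titles. Per the labels and methods, the authors counted transcripts with Cell Ranger on mm10, left out cells with over 3000 genes as likely doublets and cells with under 200 genes or over 50% mitochondrial genes, clustered the rest with Seurat and listed markers of each cluster. No flow cytometry preceded the libraries, and no further doublet removal was possible here. For each listed gene, the authors deposited 2 fractions, of the cluster's cells and of all remaining cells in which the value exceeded 0, printed here as percentages. The deposited log2 fold changes and p-values are the authors' own comparisons. They were read only for the limits of listing (log2 fold change of at least 0.25 and 1 share of at least 25%) and for how many genes the adjustment covered (2000 in the table of all cells, 12477 in the hepatocyte table), and are printed for no gene.

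Cluster sizes were solved by least squares from the balance of both shares over 1115 genes in all cells and 488 in hepatocytes, each listed for several clusters. The fit was tried on simulated shares without the authors' listing limits. That trial does not show how well the sizes of the smallest clusters are known. The share of positive cells held by a cluster and the share in Hepatocyte1 to Hepatocyte3 follow from these sizes and the deposited shares. Genes were matched to GENCODE M21 (GRCm38) and promoters to RefSeq (GRCm38.p6). Python 3.11.15, pandas 2.3.3, NumPy 2.4.6, SciPy 1.17.1 and Matplotlib 3.10.9 were used. Genes with values were named by role: up to 5 per cluster by difference in share, all those listed for hepatocytes or for 3 or more clusters, and listed members of ligand and receptor pairs, and the remaining genes were named as well. Some items that these rules take are counted but not reported by name here. The genes, lists and rules were chosen with earlier results of these data known. Alternatives were other size fits, minimum shares and differences, rounding limits and the other table. No test was run.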

Additional observations from a re-analysis of the deposited data

How the results depend on the processing

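No paired analysis was possible because the labels give 1 library per condition and both are pooled in the tables, and for the same reason no replicate could be left out. Counts of listed genes per cluster kept within 1.5 times under the alternatives that could change them, with 2 exceptions. The endothelial count went from 1 to 0 when a difference of at least 10 points was required. The red blood cell count went from 1 to 0 with ligands, receptors and the antagonist alone. A minimum share of 25% in the cluster could remove no entry of these genes. It repeats the authors' limit, and each entry had the higher share in its cluster. The share of positive cells held by a cluster moved by under 5% of its value in 76 of 76 entries under both other fits of the cluster sizes. Rounding of the deposited fractions moved 2 of them in T cells: Cxcr6 could lie between 79.8% and 92.2% and Xcl1 could be as low as 89.2%. Shares in hepatocyte clusters depended on the table. With the table of all cells, Hepatocyte4 had 66.4% for Cxcl12, 32.1% for Il1r1, 54.4% for Il1rap, 59.5% for Il6ra and 54.0% for Il6st, and Hepatocyte5 had 56.3% for Il1r1 and 71.5% for Il6st. The cause was not tested. Unknown depth, the pooling of both libraries and the absence of unlisted genes limit all of these values.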

Other observations

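Cx3cr1, the receptor for fractalkine on macrophages and monocytes, was not taken by the symbol rule, which asks for a digit directly after Cx3c. It was listed for Kupffer cells alone, with a value above 0 in 59.6% of them and in 6.8% of other cells, and its ligand Cx3cl1 was not listed.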
